A study of Mus musculus with 4 samples.

Results

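The Bex genes (brain expressed X-linked) were followed through 4 single-cell libraries of mouse blood stem and progenitor cells. They were chosen by name, as all Bex symbols listed in the count tables, which gave 5 members (Bex1, Bex2, Bex3, Bex4 and Bex6) among 32285 genes. The family was singled out because Bex4 stood about 4-fold higher in 1 of the libraries. The values of that contrast, over the whole library and within parts of it, are therefore given as a description. The cells were bone marrow cells sorted as CD45.2+Lin-Sca1+Kit+, the surface phenotype called LSK, 10 weeks after transplantation. In such transplants CD45.2 usually marks the donor's cells. There was 1 library for each of 4 groups: control, Mll3 deleted, Mll4 deleted, and Mll3/4 deleted. Mll3 and Mll4 are large histone H3 lysine 4 methyltransferases encoded by Kmt2c and Kmt2d. The strain, the way the alleles were deleted and the number of mice per library were not given in the sources used here. Since each group is 1 library, no difference between groups could be set against replicates or tested, and every interval below is a 95% interval for counting error only.

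Bex proteins are small, largely disordered adaptor proteins with no known enzyme activity, best known from neurons and neuroendocrine cells. Bex3 was first described as a partner of the p75 neurotrophin receptor that takes part in cell death signalling, Bex1 also binds that receptor, and Bex2 has been found in complexes with the transcription cofactor LMO2. Bex2 and Bex3 act as inhibitors of the FEM1B ubiquitin ligase, which senses reductive stress, and Bex4 associates with microtubules.

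The 4 libraries kept 6851 (control), 5803 (Mll3), 4609 (Mll4) and 4568 (Mll3/4) cells, with 48067715 to 111785832 UMIs (unique molecular identifiers, each counting 1 captured RNA molecule). Median depth was 14121, 14933, 20810 and 8819 UMIs per cell in that order, and pairs of libraries shared 7 to 12 cell barcodes. Each library is called by its label, as the Mll3, Mll4 or Mll3/4 library. Kmt2c stood at 68.4 CPM (counts per 1000000 UMIs) in the control and at 35.0, 61.0 and 42.2 CPM in the other libraries in the order above, while Kmt2d stood at 24.5, 21.5, 22.2 and 25.4 CPM and so did not separate the libraries with an Mll4 label. Counts from the 3′ end cannot show a deletion further upstream in a gene. The labelled cell type was not evenly met: 4539 of the 4568 Mll3/4 cells lay in clusters named B-lineage-like, and all 10 B-lineage markers were at 5 CPM or more there. The summed level of 10 stem cell markers was 721, 817, 400.1 and 133 CPM in the same order. Of these markers 10, 10, 8 and 3 were at 5 CPM or more, and none of the 10 was at 0 in any library. In the Mll4 library 2057 cells, or 44.6%, lay in 6 clusters led by mast cell, plasma cell, monocyte-macrophage, innate lymphoid or T, or stroma markers, against 1.74% of the control cells.

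Bex1 to Bex4 lie within a stretch of the X chromosome and Bex6 lies on chromosome 16. On GRCm38 the annotation places Bex2 (ENSMUSG00000042750) at X:136066564-136068236 on the minus strand, Bex4 (ENSMUSG00000047844) at X:136138996-136140443 on the plus strand, Bex1 (ENSMUSG00000050071) at X:136213972-136215513 on the minus strand and Bex3 (ENSMUSG00000046432) at X:136270253-136271978 on the plus strand. Bex6 (ENSMUSG00000075269) spans 16:32179823-32186972 on the plus strand. The promoters are shown because the family falls into pairs there: RefSeq starts on GRCm38.p6 were matched for all 5 members, and the 250 bases before the start of Bex1 and Bex4 aligned over 240 bases with 237 identical and no gap, including 1 run of 221 identical bases. Capitals mark the bases that are identical in the aligned pair.
Bex4 (chrX:136138746-136138995, plus strand): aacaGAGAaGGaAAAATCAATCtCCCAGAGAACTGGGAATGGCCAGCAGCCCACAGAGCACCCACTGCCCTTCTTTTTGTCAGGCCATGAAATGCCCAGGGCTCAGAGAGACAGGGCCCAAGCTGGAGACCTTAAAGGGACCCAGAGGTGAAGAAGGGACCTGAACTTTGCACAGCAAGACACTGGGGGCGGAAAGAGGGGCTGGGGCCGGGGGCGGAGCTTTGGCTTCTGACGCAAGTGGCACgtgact
Bex1 (chrX:136215514-136215763, minus strand): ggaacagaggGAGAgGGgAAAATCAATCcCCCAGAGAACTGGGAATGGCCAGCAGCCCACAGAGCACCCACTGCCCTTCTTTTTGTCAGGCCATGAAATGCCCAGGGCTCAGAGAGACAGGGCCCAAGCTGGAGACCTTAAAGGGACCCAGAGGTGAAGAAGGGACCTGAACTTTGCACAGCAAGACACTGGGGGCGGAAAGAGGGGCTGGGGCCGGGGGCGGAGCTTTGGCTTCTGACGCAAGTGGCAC
Bex2 and Bex3 formed the other pair, with 148 of 149 aligned bases identical.
Bex2 (chrX:136068237-136068486, minus strand): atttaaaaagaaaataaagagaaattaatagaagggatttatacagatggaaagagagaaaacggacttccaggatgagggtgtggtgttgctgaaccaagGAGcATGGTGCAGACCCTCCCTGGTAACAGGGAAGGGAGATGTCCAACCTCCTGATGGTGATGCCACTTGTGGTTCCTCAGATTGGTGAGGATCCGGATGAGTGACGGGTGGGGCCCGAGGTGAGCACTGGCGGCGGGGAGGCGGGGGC
Bex3 (chrX:136270003-136270252, plus strand): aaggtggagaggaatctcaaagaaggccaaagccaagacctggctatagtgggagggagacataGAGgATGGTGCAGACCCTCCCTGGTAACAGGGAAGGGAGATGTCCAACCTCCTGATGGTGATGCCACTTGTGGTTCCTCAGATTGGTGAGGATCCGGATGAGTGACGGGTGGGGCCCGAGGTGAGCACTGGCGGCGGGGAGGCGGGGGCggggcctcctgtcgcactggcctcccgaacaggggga
Across the 8 other pairings of the 5 promoters the longest identical run was 9 bases. Motifs were searched on both strands of the 300-base windows that run from 250 bases before to 50 bases after the start. GGGGCGG, the GC box, was in the windows of Bex1, Bex2, Bex3 and Bex4 and in 23.2% of all 32851 promoters. CACGTG, the E-box, was in those of Bex1, Bex3 and Bex4 and in 7.15% of promoters. In Bex1 and Bex4 the E-box lies at the same point of the aligned stretch, starting 3 bases before the Bex1 start, which it spans, and 9 bases before the Bex4 start. The Bex6 window held neither motif.

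The transcripts pair differently from the promoters, which bears on which gene a read is assigned to. Over the last 500 bases of the transcripts, Bex1 and Bex2 aligned over 462 bases at 91.3% identity, and 18 of 410 windows of 91 bases were the same in both. Bex4 aligned best with Bex6, at 85.3% identity over 469 bases, but their longest identical run was 29 bases. Bex1 and Bex4 shared no run longer than 11 bases there, so a read of that length is not ambiguous between these. Of the Bex4 windows 39 of 410 also occur in the gene models Gm12245 and Gm4322, and no window of Bex3 or Bex6 occurs in another gene. Counts of Bex1 against Bex2, and of Bex4 against these gene models, are therefore uncertain by what the counting did with shared reads. The body of Bex1 also overlaps Tceal7 on the opposite strand, and Tceal7 had 0 to 4 UMIs per library.

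Bex4 and Bex1 showed the highest levels in the Mll3 library. Bex4 was counted at 21.2 CPM in the control, 91.5 CPM in the Mll3, 15.6 CPM in the Mll4 and 35.2 CPM in the Mll3/4 library. The Mll3 library was thus highest and the Mll4 library lowest, and no intervals overlapped. The ratios to the control were 4.31-fold (log2 2.11, interval 2.04 to 2.18), log2 -0.45 (-0.54 to -0.36) and log2 0.73 (0.64 to 0.82). All 3 ratios share the 1 control library. Bex1 was counted at 40.1, 105 and 24.0 CPM in the control, Mll3 and Mll4 libraries and at 46.8 CPM in the Mll3/4 library. Its order over the libraries was the same as that of Bex4, with log2 ratios of 1.39, -0.74 and 0.22. Bex1 gave 1.89 UMIs per Bex4 UMI in the control, 1.15 (1.12 to 1.18) in the Mll3, 1.54 (1.45 to 1.64) in the Mll4 and 1.33 (1.25 to 1.42) in the Mll3/4 library. Over whole libraries the pair was thus closer in level in all 3 than in the control. This differed between the surface gates described below. In MPP4 the ratio was 3.94 in the control and 1.57, 1.71 and 1.29 in the Mll3, Mll4 and Mll3/4 libraries. In MPP1 it was 2.02 in the control and 2.04 in the Mll3/4 library, and in CD150+CD135+ cells 0.88 and 1.37.

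**Figure D1:**
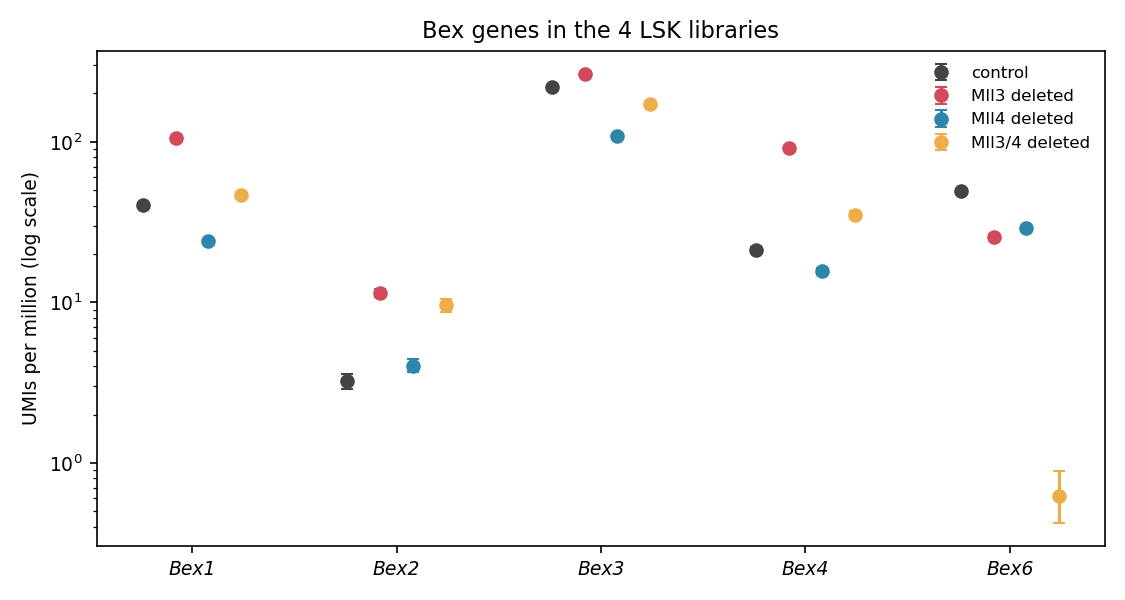
CPM (log axis) of the 5 Bex genes, with 1 point per library and 95% Poisson intervals. Bex1, Bex2 and Bex4 are highest in the Mll3 library, Bex3 spans 109 to 264 CPM, and Bex6 drops to 0.624 CPM in the Mll3/4 library.

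Bex2, the LMO2 and FEM1B partner, was the least abundant member in the control, Mll3 and Mll4 libraries, and Bex6 was in the Mll3/4 library. It was counted at 3.23 CPM in the control, 11.4 CPM in the Mll3, 4.03 CPM in the Mll4 and 9.61 CPM in the Mll3/4 library. The Mll3 and Mll3/4 libraries were both about 3-fold above the control, at log2 1.82 and 1.57, and the Mll4 value of 0.32 comes from levels below the 5 CPM minimum. Bex3, the p75 partner, was the most widely detected member, with UMIs in 62.9% to 92.7% of the cells of a library. Its level was 219.7 CPM in the control, 264 CPM in the Mll3, 109 CPM in the Mll4 and 171 CPM in the Mll3/4 library. Its log2 ratio of 0.27 in the Mll3 library ranked 2017th of 10112 genes, whose median was 0.10 and upper quartile 0.23, while the Mll4 library stood at -1.02. Bex2 and Bex3, whose promoters are nearly identical over 149 bases, thus stood at 3.23 and 219.7 CPM in the control.

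Bex6, the autosomal member, stood below the control in all 3 other libraries. It was counted at 49.6 CPM in the control, 25.7 CPM in the Mll3 and 29.0 CPM in the Mll4 library. Only 30 UMIs were found in the Mll3/4 library, or 0.624 CPM, which was 78.2-fold below the control (log2 -6.29, interval -6.88 to -5.80). Those UMIs came from 11 cells, and 29 of the 30 lay in the 29 cells outside the B-lineage-like clusters.

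Against a line of 2-fold, with at least 5 CPM in 1 of the compared libraries, 3 of the 5 members were higher and 0 lower in the Mll3 library, where 1.73% of 10112 genes were higher and 0.949% lower. Nothing is read from that count, since this contrast chose the family. In the Mll4 library 1 of the 4 members that passed the minimum was lower (Bex3) and 0 higher, against 5.14% of 10376 genes lower and 8.35% higher. For the Mll3/4 library Bex2 was higher, against 10.2% of 10493 genes, and Bex6 was lower, against 13.6%. Bex4 ranked 36th from the highest ratio in the Mll3 library, Bex2 48th and Bex1 90th, while Bex6 ranked 9994th. With the surface gates described next weighted to the control's shares, Bex1 in the Mll3 library came to 0.98 and Bex3 in the Mll4 library to -0.83, both under the line. Bex6 in the Mll3 library, at -0.95, came to -1.05 with TMM scaling, past the line, and to -0.34 with weighted gates. Its Mll4 value of -0.77 came to -1.17 with equal weight per cell.

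Within LSK, surface protein separates stem cells from progenitors, and the antibody counts of the same cells were used to gate them. The HSC gate (CD150+CD48-CD135-) holds the phenotype of long-term stem cells, MPP1 (CD150-CD48-CD135-) lies next to it, MPP2 (CD150+CD48+CD135-) and MPP3 (CD150-CD48+CD135-) lean to megakaryocyte-erythroid and myeloid fates, and MPP4 (CD150-CD135+) leans to the lymphoid fate. In the control, Bex4 stood at 71.9 CPM in CD150+CD135+ cells and 57.9 CPM in the HSC gate, whose intervals overlapped. It was 26.6 CPM in MPP2 and 21.7 CPM in MPP1, which also overlapped, then 8.72 CPM in MPP3 and 4.44 CPM in MPP4. The HSC gate was 12.9-fold above MPP4 for Bex4 and 4.52-fold for Bex1. Bex6 ran the other way, from 5.37 CPM in the HSC gate to 98.4 CPM in MPP4, or 18.2-fold. Bex3 differed little, at 233 CPM in the HSC gate and 198 CPM in MPP4.

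**Figure D2:**
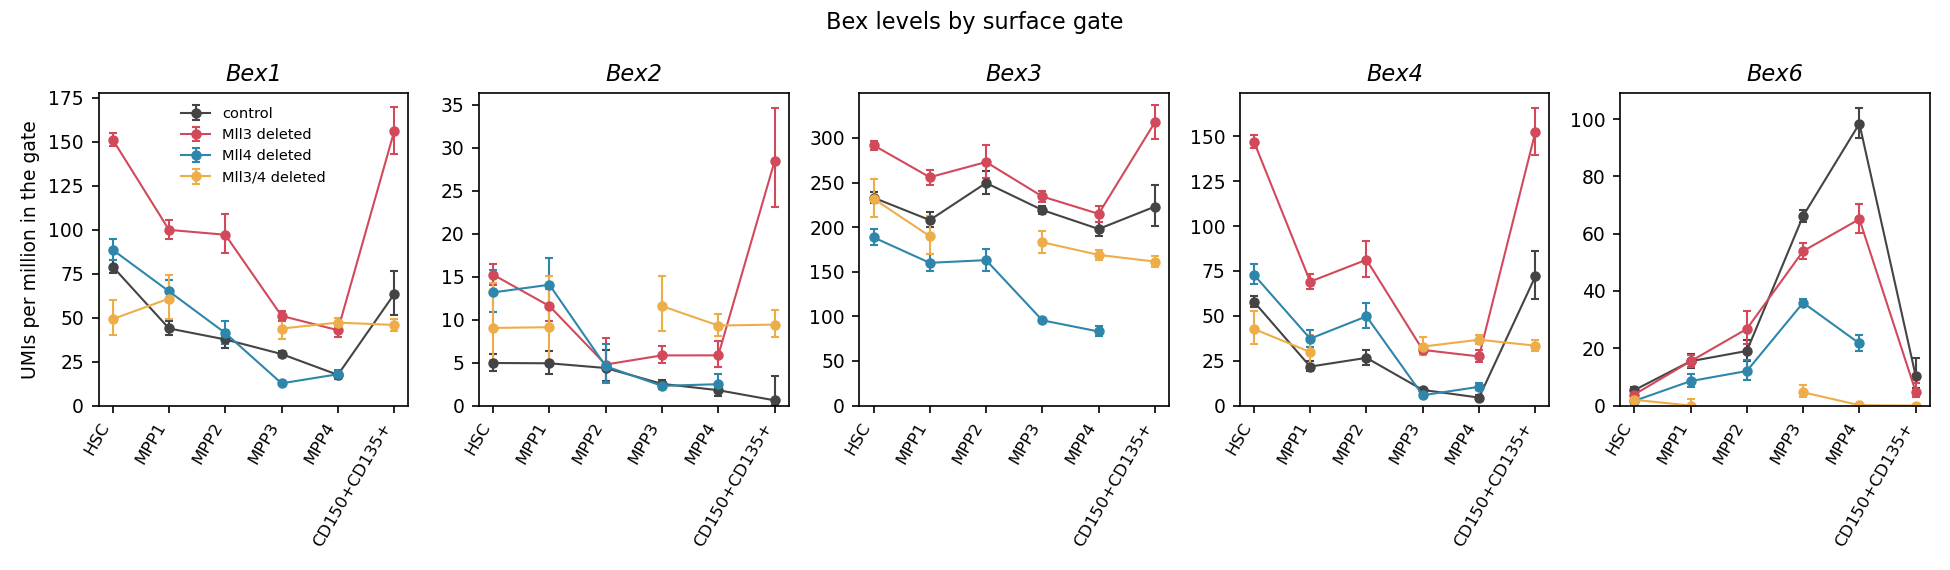
CPM of each Bex gene (1 panel each) in 6 surface gates, with 1 line per library, 95% Poisson intervals, and points only for gates of at least 100 cells. Bex1 and Bex4 are lower in MPP4 than in the HSC gate in the control, Mll3 and Mll4 libraries and differ little between these gates in the Mll3/4 library. Bex6 is highest in MPP4 in the control and Mll3 libraries and in MPP3 in the Mll4 library (35.9 against 21.7 CPM in MPP4).

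In the Mll3 library Bex4 was higher than in the control in all 6 gates. The HSC gate went from 57.9 to 147 CPM (log2 1.35, interval 1.26 to 1.44) and MPP1 from 21.7 to 69.0 CPM (1.67). MPP2 gave 1.61, MPP3 1.83, and CD150+CD135+ 1.08. MPP4, with the lowest control level, had the largest ratio, from 4.44 to 27.4 CPM (2.62, 2.22 to 3.05). The HSC gate held 43.9% of the Mll3 cells and 24.1% of the control cells, and with the gates weighted to the control's shares the whole-library ratio of Bex4 was 1.55 instead of 2.11. Bex1 was higher in all 6 gates too, from 0.80 in MPP3 to 1.37 in MPP2. Bex6 differed between gates: it was at -0.60 in MPP4 (98.4 against 65.1 CPM) and at 0.49 in MPP2 (19.1 against 26.8 CPM). Within the HSC gate 1.2% of 10204 genes were 2-fold or more higher in the Mll3 library, and Bex2 and Bex4 were among them. Nothing is read from this, since these cells are part of the contrast that chose the family.

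In the Mll4 library the direction for Bex4 turned with the gate. The HSC gate stood at 72.9 CPM against 57.9 CPM (log2 0.33, 0.20 to 0.47), MPP1 at 37.3 against 21.7 CPM (0.78), MPP2 at 49.7 against 26.6 CPM (0.90) and MPP4 at 10.4 against 4.44 CPM (1.23). MPP3, which held 69.8% of the Mll4 cells, was lower, at 5.76 against 8.72 CPM (-0.60, -0.79 to -0.41). Bex1 was likewise higher in MPP1 (0.57) and lower in MPP3 (-1.21). Bex3 was lower in each of the 5 gates that could be compared, from -0.31 in the HSC gate to -1.25 in MPP4, and Bex6 was lower in all 5 as well, from -0.65 in MPP2 to -2.18 in MPP4. Bex2 was higher in the HSC gate (13.2 against 4.96 CPM, 1.41), where 3.74% of 10310 genes were 2-fold or more higher.

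Some markers of other cells stood higher in the Mll4 library than in the control, and a link to the Bex values was not tested. The 8 mast cell and basophil markers summed to 1670 CPM in the Mll4 library and 24.5 CPM in the control, the 8 monocyte-macrophage markers to 2237 and 323 CPM, and the 7 granulocyte-monocyte markers to 10299 and 1007 CPM. All 8 mast markers were above 0 in the Mll4 library and 1 of them was at 0 in the control. The 6 clusters set apart above were led by mast cell, plasma cell, monocyte-macrophage, innate lymphoid or T, or stroma markers. The granulocyte-monocyte-like cluster was not among them. The 2057 Mll4 cells of the 6 clusters carried Bex4 at 1.67 CPM and Bex1 at 1.91 CPM. Without the 6 clusters the MPP3 ratio of Bex4 was -0.37 and that of Bex3 was -1.03 in place of -1.20. MPP4 then gave 1.95 for Bex4 and the HSC gate 0.33. By cluster, the Mll4 cells with most Bex4 were 1027 cells of an unnamed cluster in which 1 of the 10 stem cell markers, Mecom, was raised (Bex4 at 35.8 CPM) and 404 cells of a cluster led by histone genes (34.5 CPM). The 922 granulocyte-monocyte-like cells held 3.48 CPM of Bex4 and 48.5 CPM of Bex6. In bulk sums of this kind, fewer cells with a gene and less RNA per cell cannot be told apart. The shares of cells given next do not settle this, since at such low levels a share with at least 1 UMI largely follows the CPM.

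Shares of cells were compared after every cell was thinned to 3000 UMIs, which left out 13 control, 16 Mll3, 128 Mll4 and 33 Mll3/4 cells that were shallower. A Bex4 UMI was then found in 6.17% (5.61 to 6.77) of control, 21.7% (20.6 to 22.8) of Mll3, 3.1% of Mll4 and 8.25% of Mll3/4 cells. This is the same order as the CPM, which a thinned share at such low levels largely follows. Without thinning the shares were 18.9%, 55.2%, 16.6% and 24.5%. As a background for the Mll4 library, 2 of its 515 mast-like cells (0.388%, up to 1.40) had a Bex4 UMI after thinning from a median of 5227 UMIs against 20810 over the library, and its share of 3.1% (2.61 to 3.65) lies above that. Cells of other types were few in the control and Mll3 libraries. A thinned Bex4 UMI was found in 0 of 48 stroma-like control cells (up to 7.40%). It was found in 1 of 61 innate lymphoid or T-like Mll3 cells (1.64%, up to 8.80). Before thinning those 61 cells held Bex4 at 12.7 CPM, and 20 stroma-like Mll3 cells held it at 75.4 CPM from 10 UMIs. Such cells can therefore not be taken to lack the gene. The Mll3 share lies above that of the 61 cells, and the 48 control cells are too few to place the control share against theirs. Among 624 lymphoid-primed-like control cells, 4 had a Bex4 UMI (0.641%, up to 1.63). These are a class of lower Bex4 rather than cells that should lack it, so they give no background for the control share. No cluster of other cell types was large enough in the Mll3/4 library. In the HSC gate the thinned share was 13.6% in the control, 33.0% in the Mll3, 16.1% in the Mll4 and 8.42% (4.98 to 13.1) in the Mll3/4 library. In the control's MPP4 gate it was 1.54% (0.822 to 2.62). In the HSC gate of the Mll3 library, Bex1 was found in 37.7% (34.4 to 41.1) of cells with a thinned Bex4 UMI and in 31.3% (29.1 to 33.5) of those without. In the control's HSC gate the same shares were 20.1% and 16.8%, whose intervals overlap.

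The control and Mll3 cells mixed in 6 clusters with at least 100 cells of each, and no Bex gene was among the genes used for clustering. Bex4 was higher in the Mll3 cells of all 6 clusters, at log2 1.22 to 2.49 with a median of 2.24. The lowest ratio was in cluster 2, where 7 of 10 stem cell markers were raised and the control level was highest (55.7 against 130 CPM). The highest was in the lymphoid-primed-like cluster 5, marked by Dntt, Flt3 and Satb1 (3.38 against 19.1 CPM). Bex1 was higher in 6 of 6 (0.86 to 1.81), Bex2 in 6 of 6 (1.46 to 2.83) and Bex3 in 6 of 6 by a smaller ratio (0.18 to 0.38). Over the whole Mll3 library the median of all genes was 0.10 and their upper quartile 0.23, and such values are not given for single clusters. Bex6 was lower with an interval below 0 in 4 of 6.

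**Figure D3:**
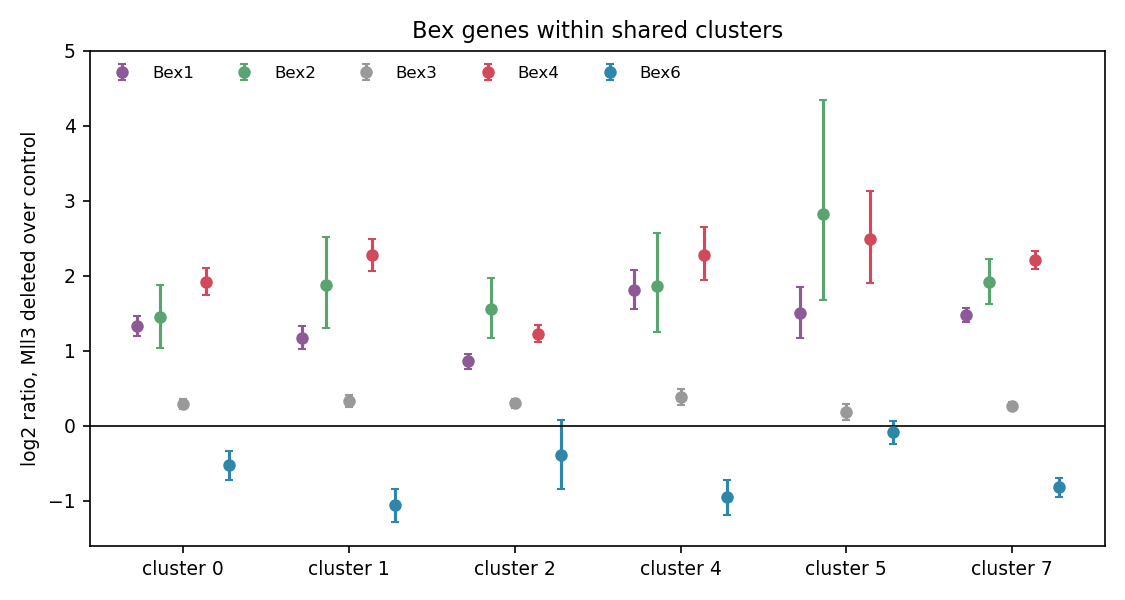
Log2 ratio of the Mll3 to the control cells for each Bex gene in the 6 clusters with at least 100 cells of each library, with 95% counting intervals. Bex4 lies at 1.22 to 2.49, Bex3 at 0.18 to 0.38, and Bex6 below 0.

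The gradient was also described by splitting cells into 4 quartiles of each antibody's signal within a library. The gates were cut from the CD150, CD48 and CD135 signals of the same cells, so the CD150 and CD48 quartiles are not a separate check. Bex4 in the control went from 6.62 CPM in the lowest CD150 quartile to 58.1 CPM in the highest, and in the Mll3 library from 33.0 to 175 CPM. CD150 (Slamf1) marks long-term stem cells. The 4 quartiles of the Mll3/4 library spanned only 33.8 to 36.6 CPM. Over CD48, a protein of committed progenitors, and over CD34 Bex4 in the control was highest in the lowest quartile (56.2 and 51.3 CPM) and lowest in the highest (6.50 and 10.3 CPM). Bex6 in the control lay the other way between the lowest and highest quartile of all 3 antibodies.

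**Figure D4:**
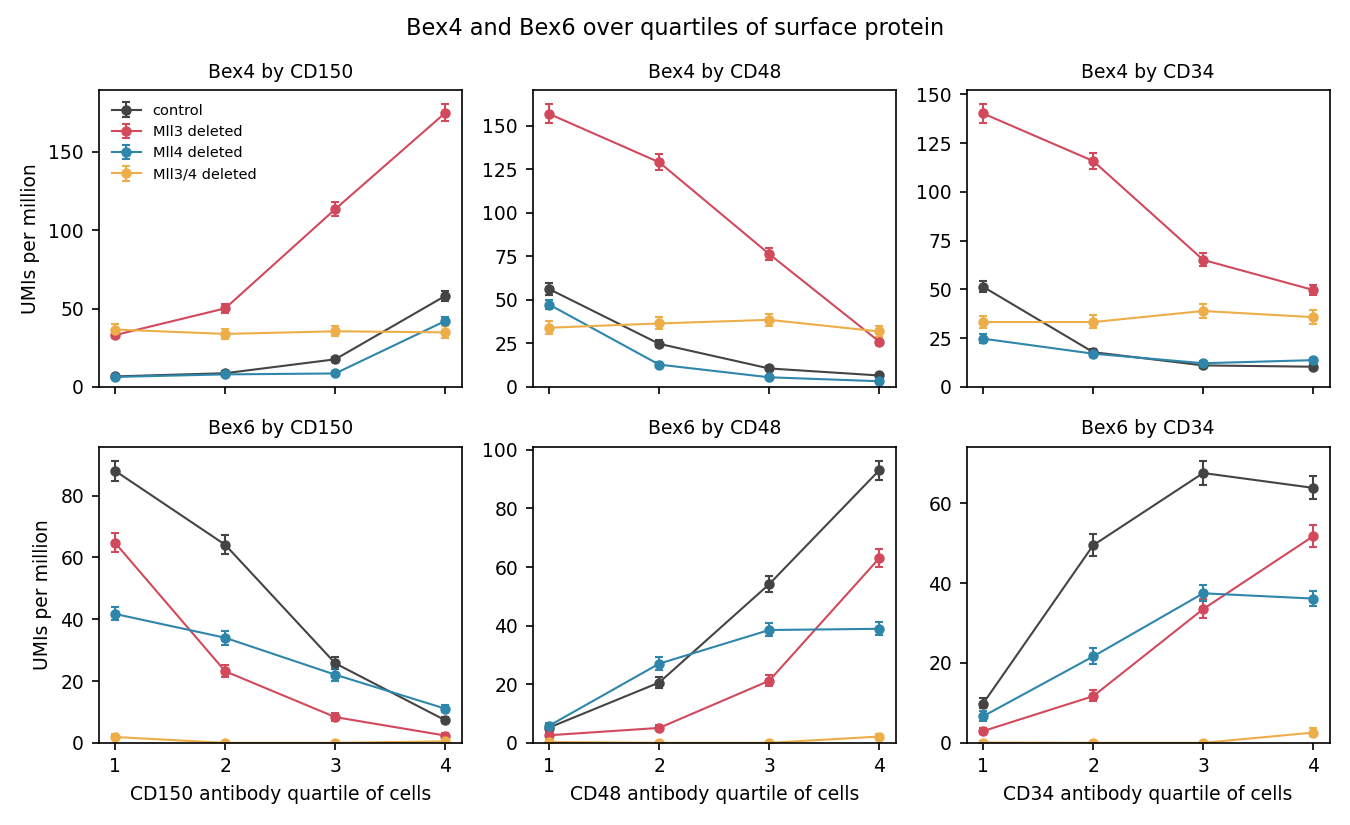
CPM of Bex4 (top) and Bex6 (bottom) in quartiles of cells ordered by CD150, CD48 or CD34 antibody signal within each library, with 95% Poisson intervals. In the control Bex4 climbs with CD150 and declines with CD48 and CD34, and Bex6 lies the other way between the outer quartiles. In the Mll3/4 library Bex4 stays between 31.8 and 38.9 CPM, and Bex6 is at most 2.56 CPM, with most of its 30 UMIs in 1 quartile of each antibody.

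The Mll3/4 library is almost wholly B-lineage-like, so its whole-library values describe those cells. There Bex4 was 42.7 CPM in the HSC gate and 36.7 CPM in MPP4, a log2 gradient of 0.23 (-0.12 to 0.54) against 3.69 (3.34 to 4.10) in the control. The gradients of Bex1 (0.07) and Bex2 (-0.01) were also near 0. Against the control, Bex4 was therefore higher in MPP4 (log2 3.04, 36.7 against 4.44 CPM) and MPP3 (1.92) and lower in the HSC gate (-0.43) and in CD150+CD135+ cells (-1.11). By cluster its level was 29.4, 49.0 and 30.7 CPM in the B-lineage-like clusters 18, 19 and 20, with median depths of 6735, 16496 and 10533 UMIs. The Mll3 library held 147 cells of a different B-lineage-like cluster, number 6, which gives the nearest comparison of B-lineage cells. Bex4 was 35.0 CPM in the Mll3/4 and 7.80 CPM in the Mll3 B-lineage-like cells (log2 2.14, 1.63 to 2.76), and Bex1 was 46.7 against 7.52 CPM. Bex3 was 171 against 186 CPM. Bex6 had 1 UMI in the 4539 and 17 in the 147 cells (log2 -7.26, -13.2 to -5.13). These cells fell in separate clusters, so stage and genotype cannot be told apart.

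Over the 22 combinations of gate and library with at least 100 cells, the gene whose profile was most like that of Bex4 among 6120 genes was Bex1, with a Pearson r of 0.947 on log2(CPM + 1). Ppic, a cyclophilin (0.916), Gstm5, a glutathione S-transferase (0.902), Slc24a5, an ion exchanger (0.898), and Cltb, a clathrin light chain (0.894), came next. The r of Bex4 with Bex3 was 0.626, with Bex2 0.607 and with Bex6 -0.488. Points of 1 library share its cells, depth and processing, so these values describe likeness across the 22 points and have no p.

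The X-linked Bex genes lie among the related Tceal and Armcx genes, which were listed together as neighbours. Of 20 listed neighbours that passed the minimum in the Mll3 comparison, 2 were 2-fold or more higher, against 1.73% of all genes. These were Tceal3 (log2 1.45, 3.08 to 8.41 CPM) and Tceal5 (1.30, 3.96 to 9.75 CPM). The list's median of 0.12 was near that of all genes, 0.10. Between Bex4 and Bex1, Tceal8 stood at 0.71 (37.2 to 60.8 CPM), and between Bex1 and Bex3, Tceal9 stood at 0.05 (124 to 128 CPM). Arxes2, outside the list and chosen after its value was seen, stood at 1.30, 145 kb from Bex4. From Arxes2 to Bex1 the 6 genes that passed the minimum lay between 0.71 and 2.11, and the next 2, Tceal9 and Bex3, lay at 0.05 and 0.27. The 6 include Bex2, Bex4 and Bex1, of the family that this contrast chose, and the ends of the stretch were set after the values were seen. Nothing is read from the stretch as a whole. Arxes1, in the same stretch, was below the minimum at 0.212 and 1.70 CPM. Over all X-linked genes the median in the Mll3 library was 0.08, and over autosomal genes 0.10. Of 21 neighbours in the Mll3/4 library 6 were higher, against 10.2% of all genes, with a median of 0.32 against -0.10: Tceal3 (2.87, 22.5 CPM), Zcchc18 (1.58), Armcx4 (1.37), Tmsb15b1 (1.33), Gprasp2 (1.23) and Tmsb15b2 (1.02). Of 18 neighbours the only one past the line in the Mll4 library was Tceal1 (-1.08), against 5.14% of all genes lower. All 4 libraries carried Xist at 1296 to 2063 CPM and at most 1 UMI of each of 4 Y-linked genes, so none showed more than a trace of Y-linked expression.

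**Figure D5:**
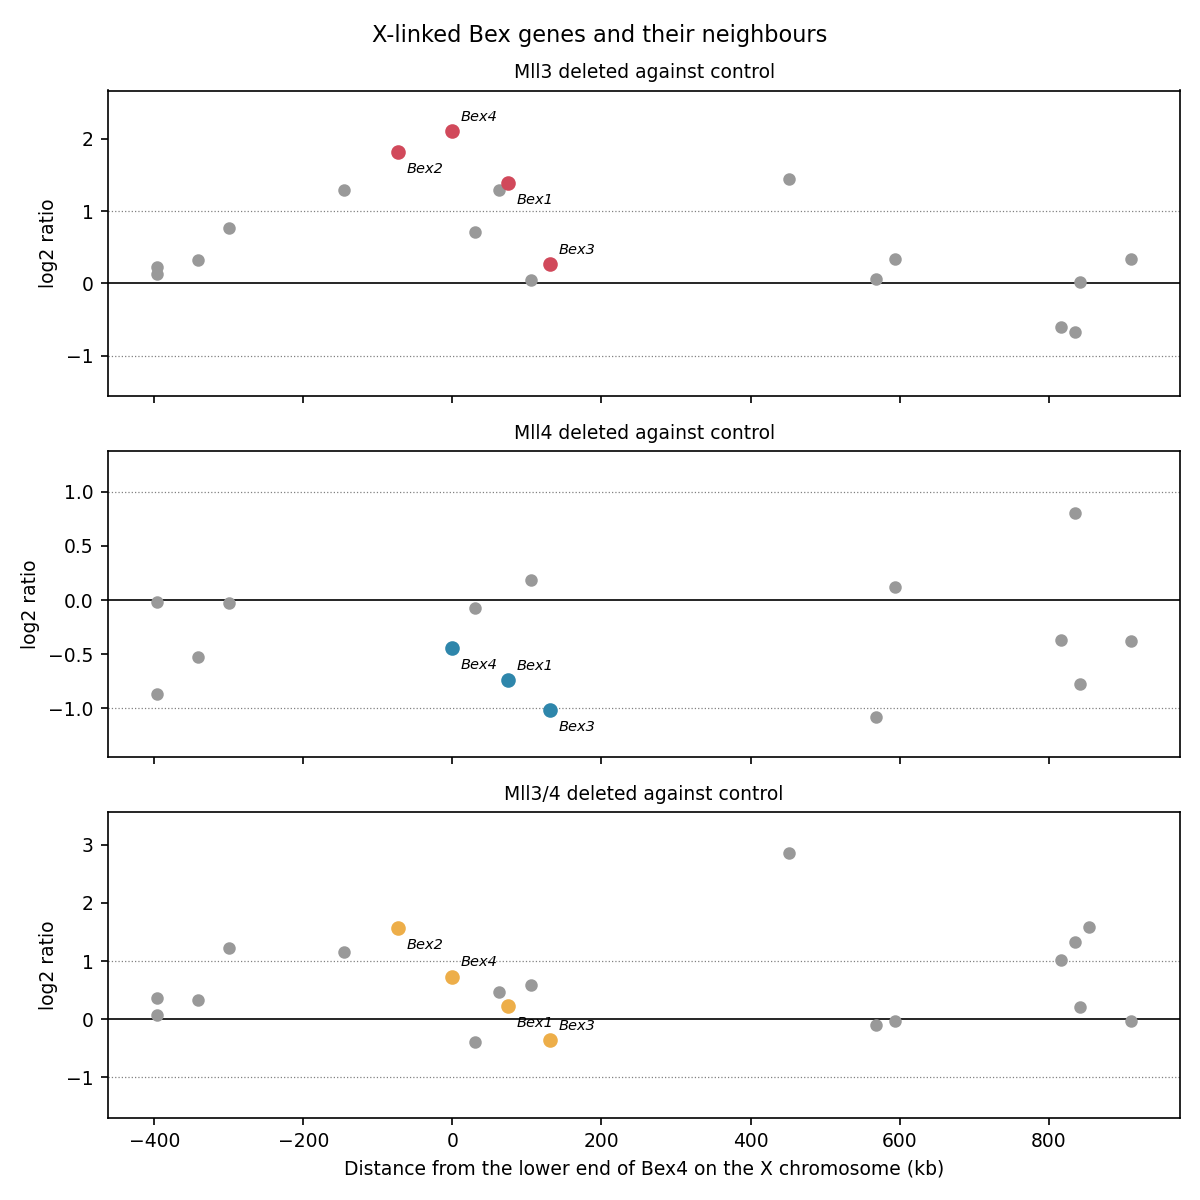
Log2 ratio to the control (1 panel per library) of genes with at least 5 CPM against distance in kb from the lower end of Bex4, with Bex genes coloured and neighbours grey, and dotted lines at 2-fold. In the Mll3 panel Bex4, Bex2 and Bex1 stand above 1 while Tceal9 and Bex3, 106 and 131 kb away, lie at 0.05 and 0.27.

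The known partners of Bex proteins were read from 3 lists, whose counts stand against 8.35% of all genes higher and 5.14% lower in the Mll4 library and 10.2% higher and 13.6% lower in the Mll3/4 library. The p75 receptor itself, Ngfr, had 1, 0, 12 and 0 UMIs in the control, Mll3, Mll4 and Mll3/4 libraries. Of the p75 and TRK list 7 genes passed the minimum in the Mll3 and Mll4 comparisons with 0 past the line, and of 8 in the Mll3/4 comparison Sorcs2, a sortilin-family receptor, was higher (4.10) and Irak1, a signalling kinase, lower (-1.18). All 11 genes of the FEM1B ligase list passed, with 0 past the line in the Mll3 and Mll4 libraries. Fnip2, a relative of the FEM1B substrate Fnip1, was lower in the Mll3/4 library (-4.92, 9.78 to 0.312 CPM). Of the LMO2 complex list 0 of 11 passed the line in the Mll3 library. In the Mll4 library Lmo4 was higher (1.99) and Lmo2 (-1.09) and Gata1 (5.53 to 2.76 CPM) lower. Of the same 11 genes 5 were lower in the Mll3/4 library, among them Lmo2 (719 to 10.0 CPM, -6.16), and Erg was higher (1.27). Bex2, the LMO2 partner, was 3.54-fold above the control in the Mll3 library, where Lmo2 stood at 902 CPM, and 2.97-fold above it in the Mll3/4 library, where Lmo2 stood at 10.0 CPM.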

How the data were processed

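Gene and antibody counts of single cells were deposited as sparse matrices of raw UMI counts, 1 per library, and the submitters' processing notes name Cell Ranger 6.1.1 and build mm10. The barcode filter and the way shared reads were counted were not given in the sources used here. The labels name 10x Genomics 3′ chemistry with feature barcodes. The members and gene lists were chosen with earlier results of these data known. Groups come from the sample titles.

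Cells were kept from 1000 detected genes upward if mitochondrial UMIs made up no more than 10%. Scrublet's own threshold called 1, 2, 169 and 1 doublets, too few in 3 of the 4 libraries, so the highest scores were removed at 0.8% per 1000 cells (423, 298, 184 and 180 cells in the order control, Mll3, Mll4, Mll3/4). UMIs were summed per library, gate or cluster and scaled to CPM, and ratios were taken as log2 after adding 0.5 UMIs, with exact conditional intervals. CPM intervals are exact Poisson and shares have Clopper-Pearson intervals. Both cover counting error only. Genes with 5 CPM in 1 of both libraries were compared at a line of 2-fold. Gates used centred log ratios of antibody counts and 1 mixture threshold per antibody. Gate ratios needed 100 cells in both libraries. The shares used cells thinned to 3000 UMIs. Cells were clustered together (scanpy 1.11.5, 2000 variable genes, 30 components, 15 neighbours, Leiden resolution 0.6), giving 21 clusters. A cluster was named from at least 3 raised markers if no other list had more markers among its top 10 genes. Clusters far shallower than their main library, with no marker among those genes, stayed unnamed. The 6 clusters led by markers of other cells were taken by the list with the largest share of raised markers, named or not. Ratios and calls were tested on simulated counts. Of 32285 gene identifiers 32158 were found in GENCODE M21. Alternatives were TMM (edgeR 4.0.16) and median-of-ratios scaling, other cell filters, no doublet removal, other weights, gates, minimums and thinning depths. The named genes are the 5 members, listed genes past the line (at most 8 per list) and the 5 most like Bex4.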

Additional observations from a re-analysis of the deposited data

Results flagged for a closer look

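Some ratios to the control had opposite signs in different surface gates of the same library, with counting intervals on either side of 0. The difference between the gates was not tested, since there was 1 library per group.

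In the Mll3/4 library Bex4 stood at log2 3.04 in MPP4 and at -1.11 in CD150+CD135+ cells, and Bex1 at 1.43 in MPP4 and at -0.68 in the HSC gate. In the Mll4 library Bex4 stood at 1.23 in MPP4 and at -0.60 in MPP3, and Bex1 at 0.57 in MPP1 and at -1.21 in MPP3. In the Mll3 library Bex6 stood at 0.49 in MPP2 (84 and 109 UMIs) and at -1.09 in CD150+CD135+ cells (17 UMIs in each library). The cell makeup of the gates differed between libraries beside these values: the Mll3/4 gates held B-lineage-like cells almost throughout, and the Mll4 MPP3 gate held 1578 of 3216 cells outside the 6 clusters led by mast, plasma cell, monocyte-macrophage, innate lymphoid or T, or stroma markers.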

How the results depend on the processing

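Of 165 alternative whole-library ratios, 54 left their counting interval and 2 changed sign, and of 170 gate ratios 51 left it and 4 changed sign. With gates weighted to the control's shares Bex4 in the Mll4 library went from -0.45 to 0.31, and with equal weight per cell Bex2 there went from 0.32 to -0.01. For Bex4 in the Mll3 library the log2 ratio was 2.01 with TMM, 2.01 with median-of-ratios factors, 2.03 with totals free of mitochondrial and ribosomal protein genes and 1.55 with weighted gates. In the Mll4 library it was -0.89 with equal weight per cell, -0.23 without the mast, plasma cell, monocyte-macrophage and innate lymphoid or T clusters, and -0.20 without the stroma cluster as well, an alternative added after seeing the data. In the Mll3/4 library it was 0.84 with median-of-ratios factors and 0.51 with equal weight. Bex6 in the Mll3/4 library ranged from -7.28 to -4.15. In the HSC gate Bex4 gave 1.12 (uncentred counts) and 1.53 (thresholds per library) for the Mll3 and 0.59 (thresholds per library) for the Mll4 library. TMM moved every log2 ratio of the Mll3 library by -0.10 and median-of-ratios factors moved those of the Mll3/4 library by 0.11. The cause of the other shifts was not tested.

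Thinning sets the shares by construction: Bex4 was found in 2.13%, 7.93%, 1.13% and 3.31% of cells at 1000 UMIs and in 18.9%, 55.2%, 16.6% and 24.5% unthinned (control, Mll3, Mll4, Mll3/4). Genes 2-fold or more higher and lower numbered 54 and 29 (Mll3), 458 and 248 (Mll4) and 616 and 727 (Mll3/4) at 20 CPM, and 2551 and 2086, 4892 and 2504, and 4184 and 4605 with no minimum. With a minimum of 50 mean CPM, 2 of the 5 genes most like Bex4 were shared with the reported ones. No paired analysis was possible because each group has 1 library. Depth limits Bex2 (351 UMIs in the control), Bex6 in the Mll3/4 library (30 UMIs) and gates of few cells. In MPP4 Bex1 in the Mll4 library went from 0.03 to -0.48 (uncentred counts) and -0.51 (thresholds per library). In MPP3 Bex2 in the Mll4 library went from -0.14 to 0.12 without the stroma and other clusters named, and Bex3 in the Mll3 library from 0.10 to -0.04 (uncentred counts).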

Other observations

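The 5 genes most like Bex6 over the 22 combinations of gate and library, a comparison chosen after the values of Bex6 were seen, were Lat2 (r 0.940), Ncf4 (0.931), Tnfaip8l2 (0.920), Prss57 (0.920) and Arhgdib (0.910). Ncf4 is a subunit of the phagocyte NADPH oxidase and Prss57 is a granule serine protease of myeloid cells. Like Bex6, Lat2 and Prss57 were nearly absent from the Mll3/4 library, at 0.541 and 0.333 CPM against 48.8 and 26.8 CPM in the control. In contrast to Bex6, their levels in the Mll4 library were above the control, at 59.3 and 57.6 CPM.

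The most Bex4 UMIs in 1 cell were 44, in an Mll4 cell of 128940 UMIs in the MPP2 gate, and the next highest cell had 23 of 87031 UMIs. Both belonged to the cluster led by histone genes.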
